A study of Mus musculus with 5 samples.

Results

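The basement membrane is the thin sheet of extracellular matrix that lies under endothelium and endocardium and wraps each cardiomyocyte, smooth muscle cell and pericyte. Laminin heterotrimers, each made of an alpha, a beta and a gamma chain, polymerise against cell receptors and form its first layer, and a cross-linked network of type IV collagen then stabilises it, with nidogen and perlecan bridging the networks. In the heart it anchors cardiomyocytes through integrins and dystroglycan and supports the capillary wall, and fibroblasts, endothelial cells and mural cells all contribute its proteins. The account here covers 10 genes that encode such proteins: the type IV collagen chains Col4a1 and Col4a2, the basement membrane zone collagen Col15a1, the laminin chains Lama2, Lama4, Lamb1, Lamb2 and Lamc1, and the linkers Nid1 and Hspg2. They were picked by symbol as the core components of this matrix, with no threshold on a measured value, from 13711 genes listed in all 5 sections. All 10 passed the filter on low values, as did 12933 of the 13711 genes.

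Gene expression was measured with Visium, in which barcoded spots on a slide take up the polyadenylated RNA of the tissue above them, in transverse heart sections of wild-type C57BL/6 mice. Every animal was operated on at postnatal day 1, either by ligation of the left anterior descending artery (myocardial infarction, MI) or as a sham control, and the sections were cut 200 µm below the suture. There was 1 sham section and 1 MI section at day 3 after surgery, and 1 sham section and 2 MI sections at day 7. Sham hearts had surgery too, so no unoperated heart was compared. Per the study, the 2 MI sections of day 7 are independent biological replicates, and no other group had more than 1 section.

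The sections held 544 spots (sham day 3), 376 (MI day 3), 960 (sham day 7), and 693 and 791 spots (MI day 7), 3364 in all, with median depths of 20842.5, 34837.5, 22934, 53940 and 20904 raw UMIs per spot. A spot covers several cells of different types, so fewer cells of a type and less RNA per cell cannot be told apart in any value given here. Levels are given as CPM, the counts of a spot scaled to a total of 1000000, averaged over the spots of a section. The sham day 3 table held raw counts and the other 4 held sctransform-corrected values, so a difference from the sham day 3 section is also a difference between kinds of table. Pairs of sections shared 3 to 449 spot barcodes, and the barcodes mark grid positions that are the same on every slide. The MI day 3 section stood apart in its macrophage markers, whose summed level over 8 genes was 969 CPM there against 115 to 284 CPM in the other 4 sections. The summed level of 9 fibroblast markers was 4427 and 4840 CPM in the sham sections and 5616 to 7565 CPM in the MI sections, while that of 10 endothelial markers lay between 2163 and 2486 CPM in all 5. The first MI day 7 section had the highest share of mitochondrial counts, 24.7%, against 13.8% to 15.8% elsewhere.

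Col4a1 and Col4a2, whose protein products combine into the most widespread type IV collagen heterotrimer, lie head to head on chromosome 8. In mouse build GRCm38, GENCODE M21 places Col4a1 at chr8:11198423-11312826 on the minus strand and Col4a2 at chr8:11312805-11449287 on the plus strand, so the annotated genes overlap by 22 bases at their starts. RefSeq start windows (GRCm38.p6, 250 bases before to 50 bases after the annotated start) were found for 8 of the 10 genes, all but Lamc1 and Lama4. The windows of Col4a1 (chr8:11312777-11313076, minus strand) and Col4a2 (chr8:11312555-11312854, plus strand) share 78 bases. They are shown because the pair had the highest spot-by-spot correlation among the 10 genes. Capitals mark the GC box motif GGGCGG or the CCAAT motif, each searched on both strands, and the sequences run 5′ to 3′ on the strand of each gene, with the shared stretch given on the plus strand.
Col4a1 start window: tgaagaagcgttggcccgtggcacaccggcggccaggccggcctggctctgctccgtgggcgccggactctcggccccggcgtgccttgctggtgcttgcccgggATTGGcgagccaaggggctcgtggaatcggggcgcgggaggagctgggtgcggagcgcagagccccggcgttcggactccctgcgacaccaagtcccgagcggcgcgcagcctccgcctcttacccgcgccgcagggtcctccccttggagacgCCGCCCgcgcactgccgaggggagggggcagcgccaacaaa
Col4a2 start window: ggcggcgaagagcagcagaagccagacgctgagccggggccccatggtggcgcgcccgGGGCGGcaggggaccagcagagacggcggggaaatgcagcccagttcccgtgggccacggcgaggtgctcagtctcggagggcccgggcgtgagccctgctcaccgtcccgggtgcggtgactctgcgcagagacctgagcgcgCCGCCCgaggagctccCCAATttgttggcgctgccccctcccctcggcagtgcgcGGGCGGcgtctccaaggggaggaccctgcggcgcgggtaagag
Shared stretch, chr8:11312777-11312854: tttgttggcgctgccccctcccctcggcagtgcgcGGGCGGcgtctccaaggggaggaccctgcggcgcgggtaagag
The shared stretch was 73.1% G and C and held 1 GC box. Of the 8 windows, 6 held a GC box, against 35.7% of 32851 windows in the RefSeq table, and 4 held a CCAAT motif, against 37.4%. The letters TATAAA were in 0 of the 8 windows and in 13.6% of all windows. These matches describe letters in a window and not binding.

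The type IV collagen chains had, with Col15a1, the largest day 3 differences between MI and sham of the 10 genes. The mean level of Col4a1 was 845 at sham day 3, 1191 at MI day 3, 945 at sham day 7, and 914 and 962 in the MI day 7 sections (CPM). The mean level of Col4a2 was 535 at sham day 3, 768 at MI day 3, 642 at sham day 7, and 584 and 676 in the MI day 7 sections (CPM). For both chains the MI day 3 section was the highest of the 5 and the sham day 3 section the lowest, and at day 7 the sham level lay between the levels of the 2 MI sections. In the raw counts of the sham day 3 section, Col4a1 had 9591 UMIs, and the exact 95% Poisson interval of its pooled level was 825 to 859 CPM, which covers counting error only. The ratio of the Col4a1 to the Col4a2 mean level moved little, from 1.42 to 1.58 over the 5 sections.

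Col15a1 encodes the core protein of a collagen that links the basement membrane to the fibrillar matrix around capillaries and muscle fibres. Its mean level was 122 at sham day 3, 179.9 at MI day 3, 180.4 at sham day 7, and 177 and 198 in the MI day 7 sections (CPM). The sham day 3 section was the lowest, and the other 4 sections lay close together irrespective of surgery. Col15a1 also had the lowest detection of the 10 genes, with at least 1 count in 87.7% of the sham day 3 spots, and every other gene and section reached 89.8% to 100% of spots.

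Among the laminin alpha chains, Lama2 encodes the chain of the muscle basement membrane and Lama4 the chain typical of endothelial basement membranes. The mean level of Lama2 was 124 at sham day 3, 133 at MI day 3, 148 at sham day 7, and 164 and 157 in the MI day 7 sections (CPM). That of Lama4 was 163 at sham day 3, 146 at MI day 3, 156 at sham day 7, and 167 and 156 in the MI day 7 sections (CPM). Lama2 was higher in each of the 3 day 7 sections than in both day 3 sections, while the Lama4 levels of the days overlapped. The ratio of the Lama2 to the Lama4 mean level was 0.761 and 0.908 at day 3 and 0.949, 0.983 and 1.01 at day 7.

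Of the beta and gamma chains, Lamb2 separated the days and Lamb1 and Lamc1 did not show such a gap. Lamb1, the beta chain of most embryonic and vascular laminins, had a mean level of 258 at sham day 3, 280.5 at MI day 3, 257 at sham day 7, and 259 and 259.9 in the MI day 7 sections (CPM). Lamc1, the gamma chain shared by nearly all of these laminins, had a mean level of 260.4 at sham day 3, 286 at MI day 3, 259.9 at sham day 7, and 261 and 260.1 in the MI day 7 sections (CPM). Both varied by little, and the ratio of the Lamb1 to the Lamc1 mean level stayed between 0.982 and 0.999 in the 5 sections. Lamb2, the beta chain of mature muscle, synaptic and vessel laminins, had a mean level of 151 at sham day 3, 133 at MI day 3, 186 at sham day 7, and 211 and 199 in the MI day 7 sections (CPM). Its 3 day 7 levels lay above both day 3 levels, and the ratio of the Lamb2 to the Lamb1 mean level was 0.583 and 0.475 at day 3 and 0.724, 0.816 and 0.768 at day 7.

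Nid1 encodes nidogen, which joins laminin to type IV collagen, and Hspg2 encodes perlecan, the large heparan sulfate proteoglycan of the basement membrane. The mean level of Nid1 was 142 at sham day 3, 146 at MI day 3, 127 at sham day 7, and 136 and 131 in the MI day 7 sections (CPM). The mean level of Hspg2 was 373 at sham day 3, 388 at MI day 3, 389 at sham day 7, and 387 and 426 in the MI day 7 sections (CPM). Neither separated the MI from the sham sections, although the highest Hspg2 level was in the second MI day 7 section. Added together, the 10 genes took 0.297% of counts in the sham day 3 section, 0.365% in the MI one, and 0.326% to 0.342% at day 7.

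**Figure D1:**
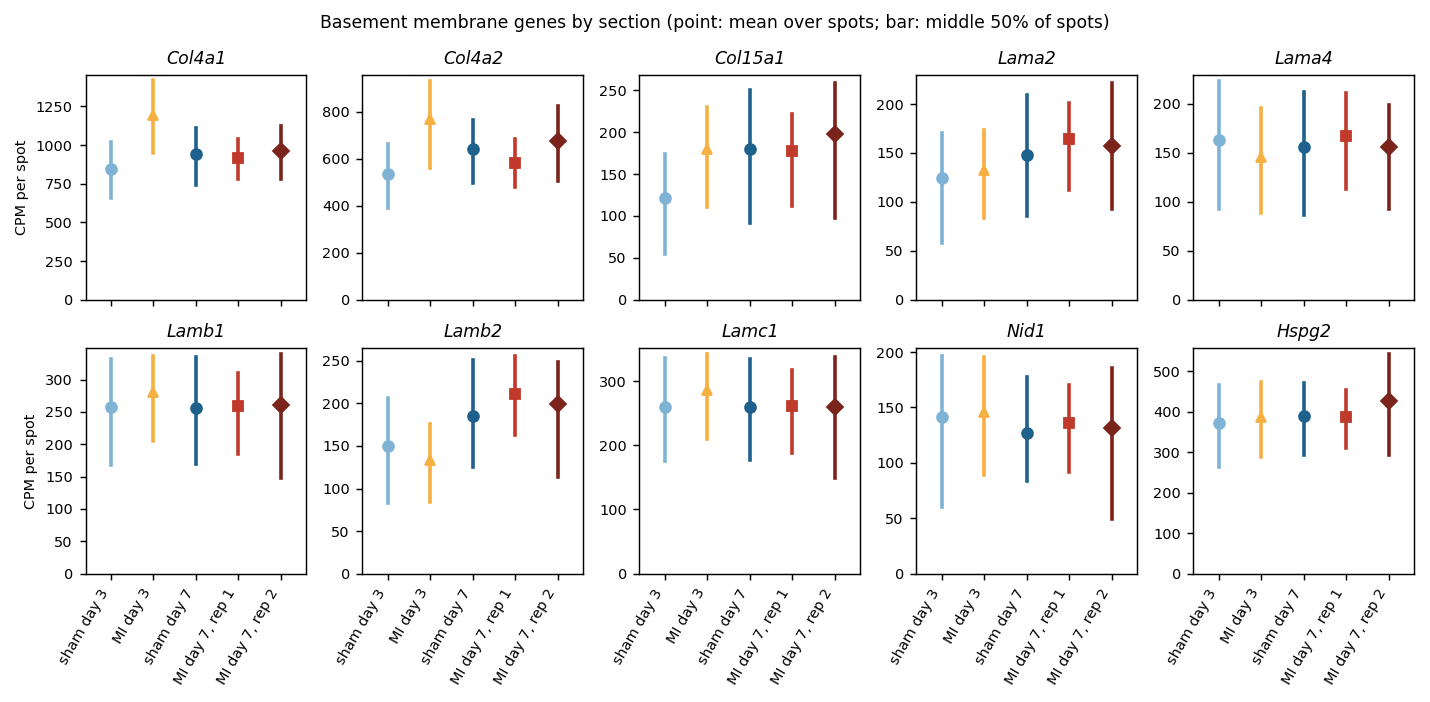
Mean level of each of the 10 genes in CPM (y axis, from 0 in each panel) in the 5 sections (x axis), with points coloured by operation. Col4a1 and Col4a2 peaked in the MI day 3 section, at 1191 and 768 CPM, and Lamb2 was higher in all 3 day 7 sections than in both day 3 sections.

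Differences between MI and sham were tested with limma on log2(mean CPM + 1) of the sections with day as a covariate, over all 12933 genes and with Benjamini-Hochberg adjustment. None of the 10 genes passed an adjusted p of 0.05, against 1 of 12933 genes called (0.00773%). The count over all genes rested on single sections, with 319 higher and 47 lower without the sham day 7 section, and 81 and 6 without the first MI day 7 section. At an unadjusted p under 0.05 the count of members was also 0. The log2 difference (MI minus sham) was positive for 9 of the 10 genes, with a median of 0.06 against -0.01 over all genes. Col15a1 had the largest difference, 0.27 ± 0.15 (SE, limma adjusted p = 0.71), followed by Col4a1 with 0.21 ± 0.16 (limma adjusted p = 0.81) and Col4a2 with 0.21 ± 0.17 (limma adjusted p = 0.82). The differences of both type IV chains and of Col15a1 rested on day 3. Without either day 3 section that of Col15a1 was 0.053. Without either the sham or the MI section of day 3, it was -0.011 for Col4a1 and -0.031 for Col4a2.

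At day 3, where 1 section stood for each group and the difference was not tested, the MI level was 1.41-fold the sham level for Col4a1, 1.44-fold for Col4a2 and 1.47-fold for Col15a1 on the log2(CPM + 1) scale. These are log2 differences of 0.50, 0.52 and 0.56. The macrophage and fibroblast marker sums were also higher in the MI section of that day, and their part in the result was not tested. Lama4 and Lamb2 went the other way, with log2 differences of -0.16 and -0.18, and the remaining 5 genes lay between 0.04 and 0.13. At day 7 the limma log2 differences of the 10 genes lay between -0.03 and 0.14, and 0 of 10 were called or had an unadjusted p under 0.05, in a fit that called 30 of 12933 genes (0.232%).

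Whether the effect of MI differed between the days was tested as the day 7 difference minus the day 3 difference. This contrast was -0.51 ± 0.43 (SE) for Col4a1, -0.55 ± 0.42 for Col4a2 and -0.50 ± 0.37 for Col15a1, each with a limma adjusted p of 0.9998. None of the 10 genes passed the threshold or an unadjusted p of 0.05, and 55 of all genes passed the threshold (0.425%). The spread in this fit, as in that of day 7, came from the 2 MI day 7 sections alone, and the other 3 groups of 1 section each were assumed to vary like them.

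Between the days, Lamb2 had the largest change of the 10 genes, with a log2 difference (day 7 minus day 3) of 0.48 ± 0.12 (SE), a 1.40-fold higher level. Its unadjusted p was 0.0060 in the limma fit and its limma adjusted p was 0.12, so it did not pass the threshold. Lama2, the other muscle laminin chain, had a difference of 0.27 ± 0.11 (limma unadjusted p = 0.042, adjusted p = 0.19), and Col15a1 one of 0.27 ± 0.15 (limma adjusted p = 0.28). No member was called, against 77 of 12933 genes (0.595%), of which 32 were higher and 45 lower at day 7 (127 and 58 with median-of-ratios scaling). Without the sham day 3 section 125 genes were higher and 622 lower, and without the sham day 7 section 121 and 637, with 0 members called in either. Under CPM scaling the median of all genes was -0.18 in this contrast and that of the members 0.00, with 5 of 10 positive. With median-of-ratios scaling, which moved the median of all genes to -0.01, all 10 were positive.

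Within the spots dominated by the CM1 score, the most frequent class, the MI and sham sections were compared again. The log2 differences of the 10 genes ran from -0.10 to 0.19, and 0 of 10 were called (smallest limma adjusted p = 0.88) or had an unadjusted p under 0.05, against 32 of 12748 genes (0.251%).

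The authors deposited, for every spot, a score for each of 11 cell types transferred from a single-nucleus RNA-seq reference, among them endothelial cells (EC), endocardial endothelial cells (EndoEC), fibroblasts (FB) and the cardiomyocyte states CM1 and CM4. Each spot was assigned to the type with its highest score. The scores were computed from the same expression values, so differences between classes within sections are described without a test. The summed endothelial marker level was above that of the CM1 spots in the EC spots of all 5 sections, and in the EndoEC spots the summed endocardial marker level was 206 to 345 CPM against 16.0 to 35.7 CPM in CM1 spots. FB spots had a fibroblast marker sum of 7048 to 19855 CPM, against 2807 to 4329 CPM in CM1 spots, but it was higher still in the spots dominated by the macrophage score at MI day 3 (16178 against 12888 CPM in FB spots) and in the second MI day 7 section (24680 against 19855 CPM), where it was highest in the 15 spots dominated by the epicardial score (30168 CPM). No markers of the CM4 state were used, so that class was not checked.

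Averaged over the 5 sections, 9 of the 10 genes, all but Lama2, had their lowest level in CM1 spots among the CM1, CM4, EC, EndoEC and FB classes. The mean Col4a1 level of the CM1 spots was 787 at sham day 3, 1050.3 at MI day 3, 869.8 at sham day 7, and 811 and 884 in the MI day 7 sections (CPM). In the EC spots it was 932 at sham day 3, 1483 at MI day 3, 1033 at sham day 7, and 1003 and 1231 in the MI day 7 sections (CPM). Every section thus had a higher Col4a1 level in its EC spots than in its CM1 spots, with a log2 difference (EC minus CM1) of 0.35 ± 0.12 (SD, n = 5 sections). Col4a2 differed by 0.30 ± 0.14, Hspg2 by 0.26 ± 0.14, Nid1 by 0.26 ± 0.13 and Lamc1 by 0.19 ± 0.08, also with the same sign in every section. The endothelial alpha chain Lama4 differed by 0.21 ± 0.23 and Col15a1 by 0.27 ± 0.24, with overlapping signs, and the muscle chain Lama2 by -0.01 ± 0.18. These 5 of 10 genes compare with 14.0% of all genes that were higher in EC than in CM1 spots of every section. The count was 4 when mitochondrial and haemoglobin genes were left out of the totals, with 9.07% of all genes, and 3 (Col4a1, Col4a2 and Lamc1) after the median of all genes was subtracted, with 5.79% of all genes then.

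The endocardial class showed higher levels across more of the set. In EndoEC spots 9 of the 10 genes were higher than in CM1 spots of every section, all but Col15a1, against 17.0% of all genes. Nid1 led with a log2 difference (EndoEC minus CM1) of 0.52 ± 0.21 (SD, n = 5 sections), and Lamb1 followed with 0.35 ± 0.08. The mean difference of Col15a1 was 0.41 ± 0.32, and those of the other 7 genes lay between 0.19 (Lama4) and 0.31 (Col4a1). The count of 9 became 7 without mitochondrial and haemoglobin genes (13.1% of all genes) and 5 after the median of all genes was subtracted (10.6%). The fibroblast marker sum of the EndoEC spots was 5918 to 9199 CPM, against 2807 to 4329 CPM in CM1 spots, and its part in these differences was not tested.

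Averaged in the same way, FB spots had the highest level of all 10 genes. All 10 were also higher in FB than in CM1 spots of every section, against 31.4% of all genes, and the count was also 10 under both other scalings, with 22.7% and 16.3% of all genes. The difference was largest for Col15a1, 0.89 ± 0.42 on the log2 scale (SD, n = 5 sections), followed by Nid1 with 0.78 ± 0.12. Lamc1, Lamb1 and Lama2 had mean differences of 0.60, 0.58 and 0.57, and the smallest was that of Col4a1, 0.40. Of the spots in the top 10% for Col4a1, FB spots made up 30.4% to 49.0% in the 5 sections, against 5.85% to 27.7% of all spots, and CM1 spots made up 7.25% to 24.1%, against 39.9% to 62.1% of all spots.

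**Figure D2:**
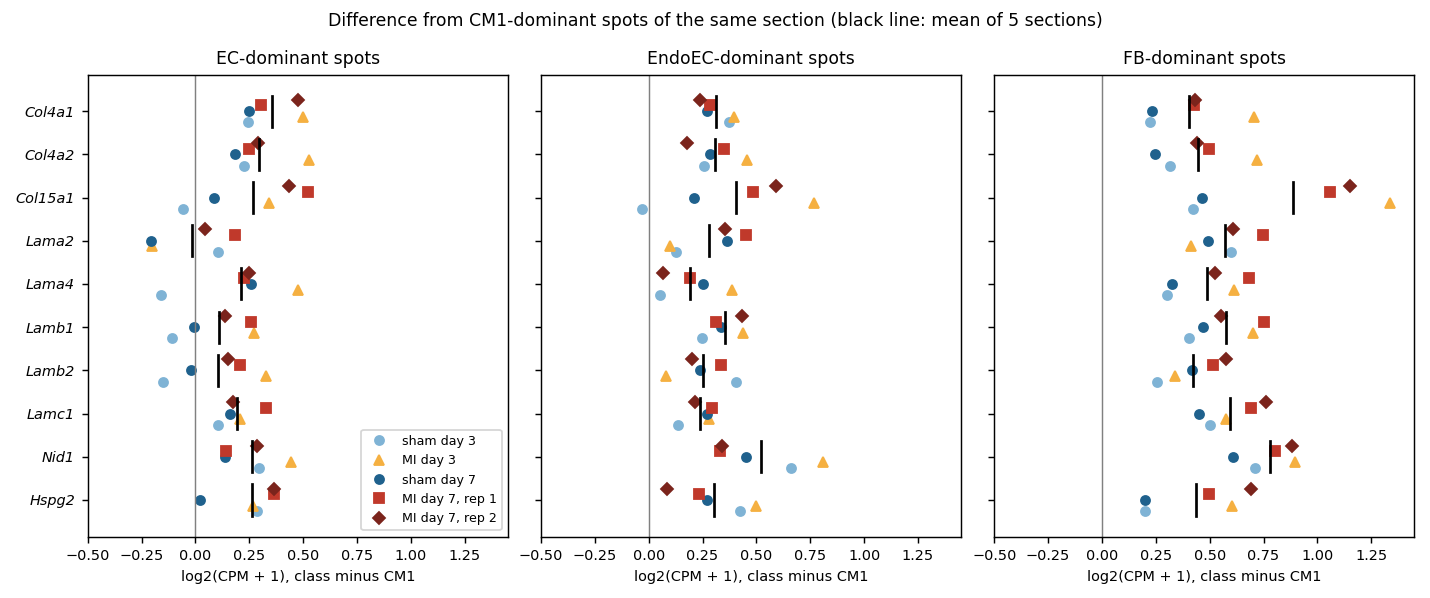
Difference in log2(mean CPM + 1) from the CM1 spots of the same section (x axis) for the EC, EndoEC and FB spots. Each of the 10 genes (y axis) has a point for each section and a black line at the mean. All 10 genes lay above 0 in the FB spots of every section, and 5 did in EC spots.

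Correlation with the EC score over the spots of a section was weak for all 10 genes. Spearman's rho of Col4a1 with the EC score was 0.20 at sham day 3, -0.03 at MI day 3, 0.03 at sham day 7, and 0.23 and 0.14 in the MI day 7 sections, over 376 to 960 spots per section. Only Lama4 had a positive rho in all 5 sections, between 0.02 and 0.08, which 10.8% of all genes did. Lama2 and Nid1 had a negative rho in all 5, with means of -0.09 and -0.07, which 6.04% of all genes did. Without mitochondrial and haemoglobin genes the 2 negative members were Lamb1 and Nid1, against 7.53% of all genes. With the summed endothelial markers in place of the score, 0 members were positive in every section (10.5% of all genes) and 0 were negative in every section (4.22%), since Lama2 had a rho of 0.048 in the second MI day 7 section and Nid1 one of 0.0045 in the first. With the EC score, 3 members were positive in the 4 sections other than MI day 3, against 16.5% of all genes. By contrast, rho with the FB score was positive in all 5 sections for all 10 genes, against 27.9% of all genes, with means from 0.14 (Lamb2) to 0.35 (Col15a1). Without mitochondrial and haemoglobin genes this held for 9 of 10, all but Lamb2, and for 17.3% of all genes. Spots share their section, depth and composition, so these correlations carry no p.

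A split of the spots that did not use the members was also tested. The spots of each section were ranked by the summed level of the 10 endothelial markers, and the top 25% was compared with the bottom 25% with section as a block. The mean Col4a1 level of the bottom and top 25% was 782 and 893 CPM at sham day 3, 1208 and 1185 CPM at MI day 3, 905 and 1008 CPM at sham day 7, and 837 against 988 and 917 against 1028 CPM in the MI day 7 sections. It was higher in the top spots in 4 of the 5 sections, and the log2 difference was 0.14 ± 0.06 (SE, limma adjusted p = 0.29). Nid1 had a difference of -0.15 ± 0.06 (limma adjusted p = 0.31) and Col15a1 one of -0.21 ± 0.10 (limma adjusted p = 0.37). These were the 3 members with an unadjusted p under 0.05 in this fit, against 13.2% of all genes. None of the 10 genes was called, against 236 of 13353 genes (1.77%), of which 137 were higher and 99 lower in the top spots (140 and 167 with median-of-ratios scaling). The fibroblast marker sum moved with the split, since it was lower in the top spots of all 5 sections, and its part in the result was not tested.

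In CM4 spots 2 of the 10 genes, Col15a1 and Lama4, differed between MI and sham relative to CM1 spots, in a comparison that was chosen after the values were seen and that depended on the scaling. CM4 is the name the study gives to a neonatal cardiomyocyte state with an embryonic gene signature. Between 40 and 86 spots per section fell in the CM4 class. In CM4 spots the mean Col4a1 level was 760.4 at sham day 3, 1423 at MI day 3, 942 at sham day 7, and 1014 and 1051 in the MI day 7 sections (CPM). The log2 difference from CM1 spots of the same section (CM4 minus CM1) was -0.05 at sham day 3, 0.44 at MI day 3, 0.11 at sham day 7, and 0.32 and 0.25 in the MI day 7 sections. For Col15a1 it was -0.29 at sham day 3, 0.74 at MI day 3, 0.12 at sham day 7, and 0.52 and 0.62 in the MI day 7 sections. For Lama4 it was -0.22 at sham day 3, 0.41 at MI day 3, -0.32 at sham day 7, and 0.50 and 0.12 in the MI day 7 sections. In 8 of the 10 genes, these 3 included, each MI section exceeded both sham sections, against 35.6% of all genes. The count was 7 without mitochondrial and haemoglobin genes (18.1% of all genes) and 4 after the median of all genes was subtracted (13.1%). Col4a1 was in neither.

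Lama4, Lamb1, Lamb2, Lamc1 and Hspg2 were higher in CM4 than in CM1 spots of all 3 MI sections and lower in both sham sections, 5 of 10 genes against 16.0% of all genes. Nid1 was the only member higher in CM4 spots of every section, which 8.90% of all genes were. In a limma fit of the CM4 and CM1 profiles with section as a block and day as a covariate, in which the classes came from scores of the same expression values while the operation did not, the difference between MI and sham in CM4 minus CM1 was 0.70 ± 0.15 (SE, limma adjusted p = 0.010) for Col15a1 and 0.63 ± 0.14 (limma adjusted p = 0.017) for Lama4. Hspg2 with 0.42 ± 0.12 (limma adjusted p = 0.055) and Col4a2 with 0.42 ± 0.13 (limma adjusted p = 0.065) did not pass. The 2 members called compare with 533 of 13285 genes (4.01%), 498 of them with a larger and 35 with a smaller difference in MI. The median of the members was 0.40 and that of all genes 0.28.

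The fibroblast marker sum was higher in CM4 than in CM1 spots of all 5 sections, at 4522 and 4750 CPM in the CM4 spots of the sham sections and 5624 to 8918 CPM in those of the MI sections, and its part in these differences was not tested.

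Blood, macrophage and mitochondrial counts also moved with this contrast, and the part of the macrophage counts in it was not tested. All 5 blood markers were called lower in the difference between MI and sham, with a median log2 difference of -1.55. The macrophage marker sum of CM4 and CM1 spots was 1048 and 302 CPM at MI day 3, 230 and 106 CPM in the second MI day 7 section and 176 and 141 CPM in the first, and in the sham sections 118 and 67.7 CPM at day 3 and 111 and 81.3 CPM at day 7. The mitochondrial share of counts was 22.8% in CM4 against 16.3% in CM1 spots at sham day 3 and 20.5% against 16.2% at sham day 7, but 9.70% against 17.0% at MI day 3, and 20.8% against 28.2% and 14.1% against 17.3% at MI day 7. With mitochondrial and haemoglobin genes left out of the totals, the difference was 0.47 for Col15a1 (limma adjusted p = 0.12) and 0.41 for Lama4 (limma adjusted p = 0.18), and 0 members were called. An unadjusted p under 0.05 was reached by 8 members in the first fit (22.3% of all genes) and by 2 in that setting (1689 of 13437 genes). With median-of-ratios scaling the differences were 0.43 and 0.35, 3 members had an unadjusted p under 0.05 (1685 of 13233 genes) and 0 were called. The split of all genes called was 67 larger and 37 smaller without mitochondrial and haemoglobin genes, and 41 and 52 with median-of-ratios scaling. Col15a1 fell to 0.45 and was not called without the sham or the MI day 3 section, and Lama4 was 0.53 and not called without the first MI day 7 section. Over the 10 alternatives the limma adjusted p ranged from 7.8e-05 to 0.22 for Col15a1 and from 0.0069 to 0.30 for Lama4. The genes of opposite sign in MI and sham were 2 of 10 (Lama4 and Hspg2) without mitochondrial and haemoglobin genes, against 6.53% of all genes, and 1 of 10 (Hspg2) after the median was subtracted, against 4.11%.

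**Figure D3:**
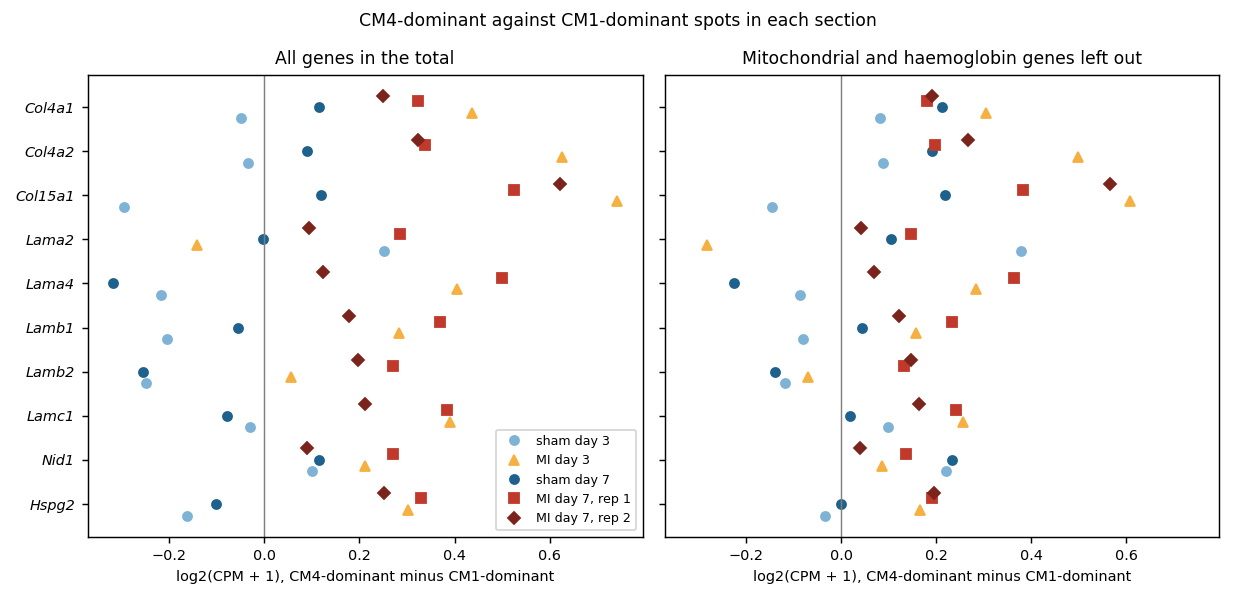
CM4 minus CM1 difference in log2(mean CPM + 1) (x axis) of each of the 10 genes (y axis) in the 5 sections. Mitochondrial and haemoglobin genes were in the total (left) or left out (right). In the left panel Col15a1 and Lama4 lay between 0.12 and 0.74 in the MI sections and between -0.32 and 0.12 in the sham sections. In the right panel they lay between 0.069 and 0.61 in the MI sections and between -0.23 and 0.22 in the sham sections.

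Correlation with the CM4 score over single spots was also described. Spearman's rho of Col4a1 with the CM4 score was -0.07 at sham day 3, 0.48 at MI day 3, -0.07 at sham day 7, and 0.49 and 0.17 in the MI day 7 sections. Col4a1, Col4a2, Col15a1, Lamb1, Lamc1, Nid1 and Hspg2 had a positive rho in all 3 MI sections and a negative rho in both sham sections, 7 of 10 genes against 22.4% of all genes. Lama2, Lama4 and Lamb2 did not, since their rho in the second MI day 7 section was between -0.03 and -0.01, and that of Lama2 was -0.01 in the MI day 3 section too. Without mitochondrial and haemoglobin genes the count was 6, against 8.87% of all genes. The CM4 score also defines the CM4 class, so these correlations are no independent measurement.

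In 7 of the 10 genes high spots were more often next to each other in every MI section than in both sham sections. Moran's I, which is near 0 where neighbouring spots are unrelated and rises where high spots lie next to high spots, was computed over adjacent spots, a measure added after the values were seen. For Col4a1 it was 0.089 at sham day 3, 0.434 at MI day 3, 0.0817 at sham day 7, and 0.31 and 0.165 in the MI day 7 sections. For Col4a2 it was 0.0991 at sham day 3, 0.411 at MI day 3, 0.0661 at sham day 7, and 0.284 and 0.172 in the MI day 7 sections. For Hspg2 it was 0.009 at sham day 3, 0.255 at MI day 3, 0.0758 at sham day 7, and 0.237 and 0.139 in the MI day 7 sections. All 3 MI sections lay above both sham sections for these genes and for Col15a1, Lamb1, Lamc1 and Nid1, 7 of 10 genes against 22.0% of all genes. Lama2, Lama4 and Lamb2 overlapped between the operations. The count was 7 with only spots of at least 1000 raw UMIs (2771 of 12933 genes) and 6 without mitochondrial and haemoglobin genes (20.8% of all genes), where Lamc1 overlapped. Ranked among all genes of the same section, Col15a1 alone kept the separation, with 4.18% and 94.0% of genes below it in the sham sections and 95.9% to 99.1% in the MI sections. Col4a1 stood above 97.6% and 97.8% of genes in the sham sections and 96.8% to 99.2% in the MI sections. The median over all genes was 0.0042 and 0.0069 in the sham sections and 0.0124 to 0.0280 in the MI sections. Median depth was 20842.5 and 22934 raw UMIs in the sham sections. It was 34837.5 at MI day 3, and 53940 and 20904 in the MI day 7 sections. Its part in Moran's I was not tested.

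**Figure D4:**
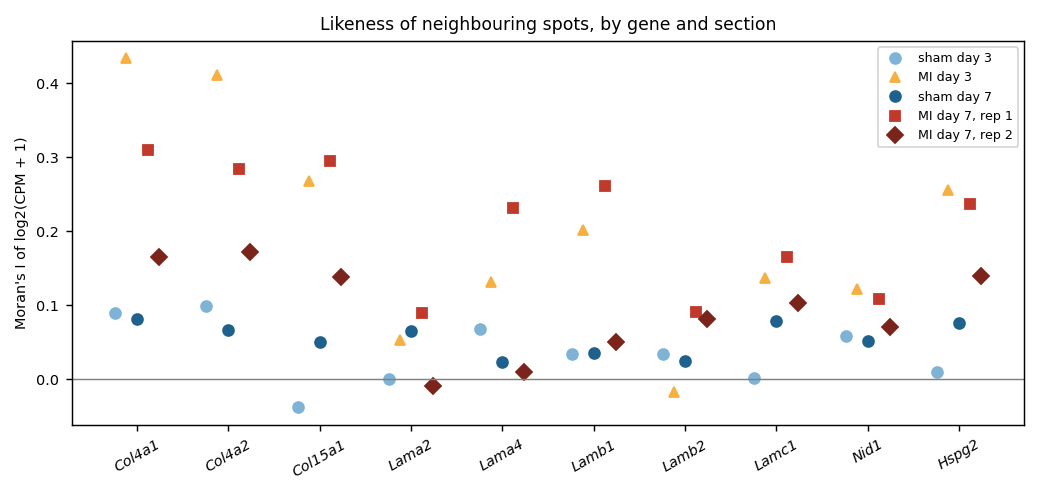
Moran's I (y axis, no unit) of the 10 genes in the 5 sections, with points coloured by operation. For Col4a1 the MI sections lay between 0.165 and 0.434 and the sham sections at 0.0817 and 0.0890.

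**Figure D5:**
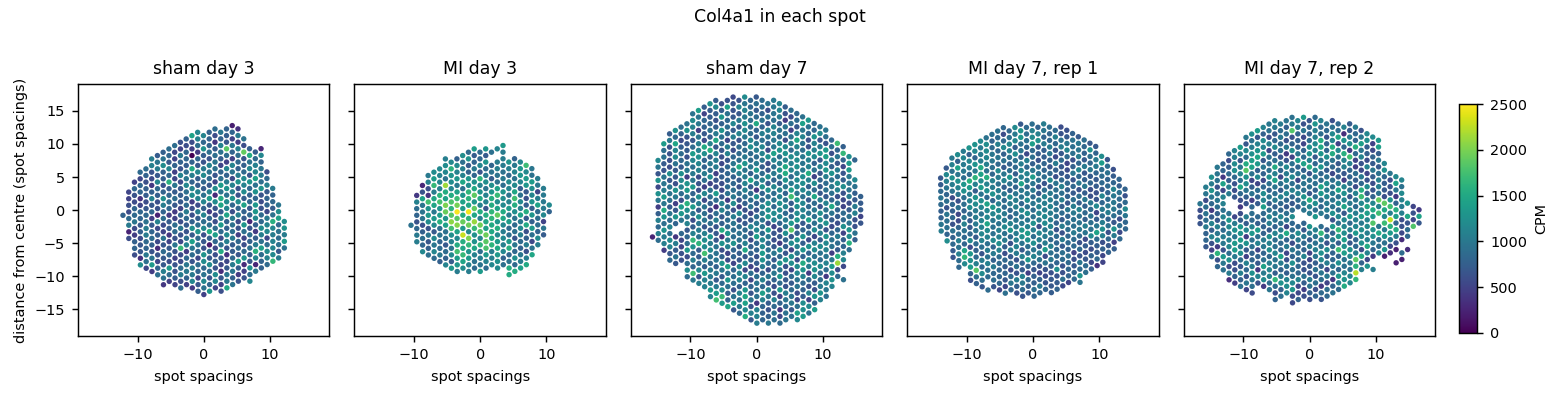
Col4a1 level (colour, CPM from 0 to 2500) of the spots of each section at their place on the slide, with both axes in spot spacings and spots without a neighbour not drawn. High spots formed patches in the MI day 3 section and in the first MI day 7 section and were scattered in the sham sections.

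Across spots the 10 genes moved together to different degrees. Spearman's rho between Col4a1 and Col4a2 was 0.26 in both sham sections, 0.62 at MI day 3, and 0.54 and 0.37 at MI day 7. Between Lama4 and Lamb2 it was 0.03 to 0.18. The part of section depth in these values was not tested. The mean rho of a gene with the mean log2(CPM + 1) of the other 9 was highest for Col4a1 (0.38) and Col4a2 (0.37). It was lowest for Lamb2 (0.18) and Lama2 (0.20). Other genes of at least 20 CPM were ranked by their mean rho, over the 5 sections, with the mean log2(CPM + 1) of the 10. The highest were Postn, the matricellular periostin of activated fibroblasts (0.53), and Sparc, a collagen-binding matrix protein (0.48). Next came the proteoglycan Dcn (0.46), fibronectin Fn1 (0.46) and the proteoglycan Lum (0.46). None of these 5 is an endothelial marker, and 3 (Postn, Dcn and Lum) are in the list of fibroblast markers.

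Other genes of the same matrix were taken as fixed lists. Of 20 further basement membrane components, 17 passed the filter, and 0 were called between MI and sham across days (1 with a limma unadjusted p under 0.05), with a median log2 difference of 0.08 against -0.01 over all genes. Their largest differences were those of Lamb3 (0.48 ± 0.22, SE, limma adjusted p = 0.66) and Smoc2 (0.36 ± 0.12, limma adjusted p = 0.52). In CM4 minus CM1 between MI and sham, Lama5 (1.18 ± 0.27, SE), the alpha chain of many adult vessel laminins, and Col18a1 (0.92 ± 0.16), the precursor of endostatin, passed with limma adjusted p of 0.018 and 0.0023. Of this pair, Col18a1 also passed without mitochondrial and haemoglobin genes (limma adjusted p = 0.022, range 1.5e-05 to 0.059 over 10 alternatives) and Lama5 did not (0.086), and with median-of-ratios scaling neither did.

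Of 16 genes for assembly and crosslinking, 15 had a positive log2 difference across days (47.9% of all genes), with a median of 0.22, 2 genes with a limma unadjusted p under 0.05 (8.10% of all genes) and 0 called. All 9 fibroblast markers were positive too, with a median of 0.38, 5 with a limma unadjusted p under 0.05 and 0 called. Their part in the differences of this list was not tested. Lox, a lysyl oxidase that crosslinks collagen, had a difference of 0.63 ± 0.28 (SE, limma adjusted p = 0.64) and its relative Loxl1 one of 0.55 ± 0.20 (limma adjusted p = 0.57). In the CM4 comparison 3 of 16 passed, against 4.01% of all genes, namely P3h2 (2.43 ± 0.51), a prolyl hydroxylase that modifies type IV collagen, Loxl2 (1.02 ± 0.22) and Loxl1 (0.76 ± 0.15), with limma adjusted p of 0.011, 0.011 and 0.0072. The difference of Loxl2 was 0.81 (limma adjusted p = 0.063) and that of Loxl1 0.53 (0.079) without mitochondrial and haemoglobin genes, where P3h2 passed with 2.28 (limma adjusted p = 0.036). With median-of-ratios scaling 0 of the 3 passed.

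Of 17 receptor genes 0 were called between MI and sham in any of the 5 limma comparisons of the operations, and 2 had an unadjusted p under 0.05 across days. Itga7, the laminin-binding integrin chain of striated muscle, was the 1 receptor called between the days, with a log2 difference (day 7 minus day 3) of 0.94 ± 0.11 (SE, limma adjusted p = 0.032). Its mean level was 39.7 (sham) and 38.5 CPM (MI) at day 3, and 72.0 (sham), 80.6 and 77.7 CPM (MI) at day 7. The groups did not overlap, and Itga7 passed in 9 of 11 alternatives, the exceptions being without the MI day 3 section (limma adjusted p = 0.22) and without the second MI day 7 section (0.063). Itga2 and Sgcb had the largest MI differences of the receptors, -0.70 ± 0.29 and -0.37 ± 0.14 (SE, limma adjusted p of 0.61 and 0.57).

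Of the 13 proteases and inhibitors that passed the filter, 11 had a positive log2 difference across days, with a median of 0.48, 5 genes with a limma unadjusted p under 0.05 (8.10% of all genes) and 0 called. Ctss, the macrophage cathepsin S that cleaves laminin and elastin, had a mean level of 155 CPM in the MI day 3 section, 9.97 and 6.50 CPM in the sham sections and 12.3 and 17.8 CPM in the MI day 7 sections. Its day 7 minus day 3 contrast of the MI effect was -2.76 ± 0.36 (SE, limma adjusted p = 0.0017), with 1 section in 3 of its 4 groups and a spread from the MI day 7 sections alone, so the p compares single sections. It was not called without mitochondrial and haemoglobin genes (limma adjusted p = 0.28, range 8.4e-08 to 0.28) or with median-of-ratios scaling (limma adjusted p = 0.20). The macrophage marker sum was also highest in the MI day 3 section and lowest in the sham sections, and its part in the Ctss values was not tested. In CM1 spots Ctss was higher in MI by 1.58 ± 0.31 (SE, limma adjusted p = 0.048) and passed in 6 of 11 alternatives. It had a difference of 0.77 when either day 3 section was left out (limma adjusted p = 0.35 and 0.43). In the split by endothelial markers Timp4 was higher in the top spots by 1.38 ± 0.25 (SE, limma adjusted p = 0.017) and the gelatinase Mmp2, which cleaves type IV collagen, was lower, with -0.51 ± 0.08 (limma adjusted p = 0.0058). Both lost the call without the sham day 3 section, with limma adjusted p of 0.12 and 0.054. The protease inhibitor Timp1 (1.34 ± 0.27), Ctsb (0.60 ± 0.15) and Ctsl (0.54 ± 0.13) passed in the CM4 comparison, 3 of 13 against 4.01% of all genes, with limma adjusted p of 0.0076, 0.031 and 0.024. Of these only Timp1 did without mitochondrial and haemoglobin genes (limma adjusted p = 0.047), and 0 did with median-of-ratios scaling.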

How the data were processed

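Visium libraries of 5 mouse heart sections were analysed. Alignment was to mm10 (GRCm38) with Space Ranger, both named in the submitters' processing notes, the latter without a version. Each section had a deposited expression table and deposited spot metadata. The sham day 3 table, as the authors deposited it, held raw UMI counts. The other 4 deposited tables held sctransform-corrected values. These are corrected to near the median depth of the section and rounded to whole numbers, so no count test was used. The deposited metadata held the raw UMI count and spot position (pixels), and 11 cell type scores, each a fraction between 0 and 1, from label transfer by the authors. Where a spot's highest score named a type, the spot was assigned to it, also at scores under 0.5.

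Values were scaled to CPM per spot over the 13711 shared genes and averaged over spots. Genes were tested where 2 or more columns reached a mean of 1 CPM. Differences were fitted with limma 3.58.1 (R 4.3.3) on log2(mean CPM + 1), after the fit was tested on simulated data, and p-values were adjusted by the Benjamini-Hochberg method over all genes tested. Day 3 had 1 section per group and was not tested. Classes of under 10 spots in a section were left out there. Spearman's rho and Moran's I were computed in Python 3.11.15 with pandas 2.3.3, numpy 2.4.6 and scipy 1.17.1. Members, lists and tests were chosen with earlier results of these data known. The text names the 10 members, from each list up to 3 genes per comparison that passed and otherwise the 2 with the largest change of 1 sign on both days, and the 5 genes most alike, except 1 result that is not reported here. Positions are from GENCODE M21 and windows from RefSeq (GRCm38.p6). Alternatives changed the pseudocount, filter, scaling, spots and genes in the total, and left out each section in turn. Raw depth was 11396022 to 37492530 UMIs per section. Intervals cover counting error only.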

Additional observations from a re-analysis of the deposited data

Results flagged for a closer look

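In the comparison of CM4 with CM1 spots, 6 of the basement membrane genes differed between MI and sham in sign or by the test, in a contrast whose median over all genes was 0.28. For Lama4, Lamb1, Lamb2, Lamc1 and Hspg2, CM4 spots were higher than CM1 spots in every MI section and lower in every sham section, with a mean log2 difference between the operations (MI minus sham) of 0.61, 0.41, 0.43, 0.38 and 0.43. These opposite directions were not tested as such, and 16.0% of all genes had them. For Col15a1 the difference itself passed the limma test, with 0.70 (adjusted p = 0.010), as it also did for Lama4. Col15a1 did not pass without either day 3 section (0.45), nor Lama4 without the first MI day 7 section (0.53). Neither passed once mitochondrial and haemoglobin genes were left out of the totals. The fibroblast marker sum of CM4 spots was 4522 and 4750 CPM in the sham and 5624 to 8918 CPM in the MI sections, and its part in these differences was not tested.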

How the results depend on the processing

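No member passed the limma threshold in any alternative of the comparisons across days, between days, at day 7, of the effect between days, in CM1 spots and in the split by endothelial markers. Leave-out values across days were -0.011 to 0.50 for Col4a1 and -0.031 to 0.52 for Col4a2, both negative without either day 3 section, and the difference of Col15a1 was 0.053 there. In the CM4 comparison 1 to 3 members passed when each section was left out, 0 without mitochondrial and haemoglobin genes and 0 with median-of-ratios scaling. Over all genes this fit called 1588 larger and 313 smaller of 13218 without sham day 7 (3 members), 873 and 24 of 13178 without sham day 3 (1 member), 953 and 29 of 13055 without MI day 3 (1 member), and 212 and 30 of 13241 or 249 and 32 of 13129 without the first or the second MI day 7 section (1 and 2 members). Col15a1 lost the call at 0.45 without the sham or the MI day 3 section and Lama4 at 0.53 without the first MI day 7 section, and Col4a2 gained it at 0.66 without the sham day 7 section. The 5 members with opposite CM4 signs were 1 after the median was subtracted (4.11% of all genes) and 2 without mitochondrial and haemoglobin genes (6.53%), and the 8 with a larger CM4 difference in every MI section were 4 after the median was subtracted (13.1%). Members higher in CM4 spots of every section (1) numbered 3 after the median was subtracted (6.75% of all genes), 4 without mitochondrial and haemoglobin genes (10.2%) and 1 to 4 when a section was left out (4 without sham day 3, against 18.9% of all genes). Members higher in EC spots (5) numbered 3 (5.79%), and in EndoEC spots (9) 5 (10.6%), after the median was subtracted. Members positive with the EC score (1) numbered 0 with the marker sum (10.5% of all genes) and 1 to 3 when a section was left out (3 without MI day 3, against 16.5%). Genes called over all at day 7 (24 higher, 6 lower) were 0 with either other scaling and 62 and 25 on section sums, those of the effect between days (8 and 47) 0 with either scaling and 23 and 135 on sums, and those in CM1 spots (24 and 8) 11 and 3 with median-of-ratios scaling, 40 and 18 on sums, 185 and 59 without sham day 7 and 147 and 120 without the second MI day 7 section. Across days (1 higher) 24 and 5 were called without sham day 3, 26 and 8 without MI day 3 and 0 without the second MI day 7 section, and between days (32 and 45) the counts were 84 and 129 without mitochondrial and haemoglobin genes, 59 and 86 without the first and 10 and 22 without the second MI day 7 section. The cause of these changes was not tested. In all, 368 values under the alternatives were taken as alike, 19 moved, 4 reversed sign, 7 lost a call and 1 gained one. A count or an untested difference was taken as alike when it was close to its main value. A tested difference was taken as alike when it kept its sign and its side of the threshold. The settings on spot depth, left-out mitochondrial genes by class and Moran's I, and the whole CM4 comparison, were chosen after seeing the data. No paired analysis was possible because the groups shared fewer than 2 replicate numbers.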
